A study of Mus musculus with 12 samples.

Results

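Oxidative phosphorylation (OXPHOS) genes were examined in adrenal glands of KK/HlJ and C57BL/6J mice. Members were taken by name from the probesets that the platform annotation pairs with exactly 1 gene, namely the symbols beginning with Nduf, Sdha to Sdhd, Uqcr, Cox followed by a digit, or Atp5. This rule found 29 of the 6986 genes measured, and it used no expression value. The 29 comprised 7 subunits of complex I, 2 of complex II, 3 of complex III, 3 of complex IV and 5 of complex V, 7 assembly factors, the paralogue Ndufa4l2 and the pseudogene Atp5c1-ps. They are a part of the full OXPHOS gene complement, since nearly all genes in the table analysed here lie on chromosomes 1 and 10 to 15, and the members came from chromosomes 1, 10, 11, 12, 13 and 15.

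The study compared KK/HlJ mice (KK), an inbred strain used as a polygenic model of obesity and type 2 diabetes, with C57BL/6J mice (C57), in males (M) and females (F) on standard chow and aged 21 weeks by the labels. No treatment separated the groups, and all animals had gone through fasting glucose, insulin tolerance and behavioural tests before. RNA from whole adrenals was pooled within each of the 4 groups (C57-M, C57-F, KK-M and KK-F), and every pool was hybridised to 3 Affymetrix Mouse Gene ST arrays, 12 in all. The 3 arrays of a group therefore repeat 1 pool, so that every SD, standard error (SE) and p-value below measures the spread between arrays and does not cover the spread between mice. Values are log2 RMA signals of a probeset, which can be compared between arrays for a given gene but not between genes.

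OXPHOS takes place in the inner mitochondrial membrane. Complexes I and II pass electrons from NADH and succinate to ubiquinone, complex III hands them to cytochrome c, and complex IV reduces oxygen to water. Complexes I, III and IV pump protons as they do so, and complex V, the ATP synthase, uses the proton gradient to make ATP. In the adrenal cortex, mitochondria also house the side-chain cleavage and 11-beta-hydroxylation steps of steroid synthesis, which draw reducing power from the same matrix.

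Of the 29 members, 26 reached a mean of at least 4 on the log2 scale in at least 1 group and were tested. The pseudogene Atp5c1-ps (2.31 to 2.87 over the 12 arrays), the testis isoform gene Cox8c (2.73 to 3.06) and the complex I assembly factor gene Ndufaf2 (3.11 to 4.1) stayed under this level. Medians over all probesets ran from 3.88 to 3.99 over the 12 arrays. They were highest in KK-F, at 3.97 to 3.99, against 3.88 to 3.91 in KK-M. The tissue label was borne out by high signals of the cortex enzyme gene Cyp11b1 (12.43 to 12.87) and the medulla genes Chga (11.83 to 12.7) and Pnmt (9.42 to 10.99). The mean of the 26 tested members on an array was 7.33 to 7.44 in C57-M, 7.31 to 7.46 in C57-F, 7.18 to 7.32 in KK-M and 7.12 to 7.16 in KK-F, so that every KK array lay below every C57 array, except that the highest KK-M array (7.32) lay above the lowest C57-F array (7.31). The same mean over all 4414 tested genes was 6 to 6.01, 5.96 to 5.99, 5.91 to 5.94 and 5.97 to 6.01 in these groups.

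Between the strains, 7 of the 26 tested OXPHOS genes were called in each sex, and 5 of these in males and 6 in females were lower in KK than in C57 adrenals. A gene was called when its fold change was at least 1.4 (0.4854 on the log2 scale) with a Benjamini-Hochberg adjusted p under 0.05 in the limma fit across all 4414 genes. In males 5 of 26 members were lower in KK (Cox7c, Cox16, Ndufs4, Cox20 and Sdha), a share of 19.2% against 13.4% of all genes tested, and 2 were higher (Ndufa4l2 and Cox14), a share of 7.69% against 7.05%. In females 6 of 26 were lower in KK (Cox7c, Ndufb9, Atp5d, Atp5b, Sdhc and Ndufs7), a share of 23.1% against 9.06%, and 1 was higher (Ndufa4l2), a share of 3.85% against 9.56%. The counts of higher members and the male count of lower members are thus not far from the background, and the female count of lower members is the one that lies farthest above it.

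The median log2 fold change of the 26 members was -0.22 in males and -0.15 in females, against -0.07 and 0.03 over all genes tested. With renewed quantile normalization of the arrays both medians stayed negative (-0.09 and -0.12), but the lower members in males dropped from 5 to 1, Cox7c, while Cox16, Cox20, Ndufs4 and Sdha no longer reached the fold threshold. The same scaling moved the share of higher genes among all calls in males from 34.5% to 49.5%. Of the 26 members, 16 had a negative and 4 a positive difference in both sexes, and 6 had opposite signs. Counted by sex, 19 of 26 were negative in males and 19 in females, against 2561 and 2032 of all 4414 genes tested. Cox7c and Ndufa4l2 were the 2 members called in both sexes, which is 2 of the 7 called in males and 2 of the 7 in females. No share over all genes tested is given for calls or for signs shared by both sexes. Neither count is therefore read as high or low. Cox7c was tested only because of its C57 levels, as both KK means were under 4, so its direction was partly fixed by the filter, and without it the lower members numbered 4 of 25 in males and 5 of 25 in females (medians -0.19 and -0.13).

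**Figure D1:**
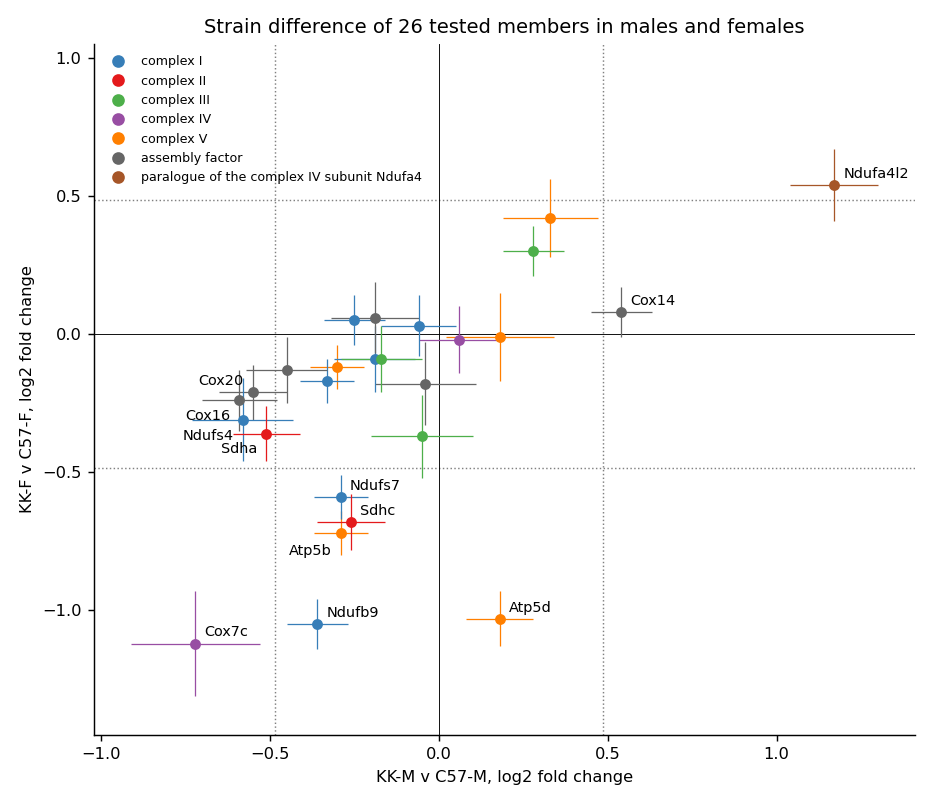
Log2 fold change of each of the 26 tested OXPHOS genes between the strains, in males (KK-M v C57-M, horizontal axis) and in females (KK-F v C57-F, vertical axis); bars are the SE of the limma fit, colours give the complex, dotted lines mark a fold change of 1.4, and the 12 members called in any comparison are named. Points below the lower dotted line, from Ndufs7 (-0.59) to Cox7c (-1.12), fell in females, and all but Cox7c lie right of the left dotted line; after renewed quantile normalization Ndufs7 (-0.41) is not past the line, nor are Cox16, Cox20, Ndufs4 and Sdha in males.

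The share of genes lower in KK varied with signal strength over all genes tested. Among all genes with a 12-array mean of 8 to 10, 18.4% were lower in KK-M than in C57-M and 21% were lower in KK-F than in C57-F, and at a mean of 10 and over the shares were 5.36% and 21.4%. Of the 7 members between 8 and 10, 3 were lower in males and 1 in females, with median log2 fold changes of -0.33 and -0.21 against -0.17 and -0.11 for all 348 genes at that level. Of the 3 members at 10 and over, none was lower in males and all 3 (Atp5b, Atp5d and Ndufs7) were lower in females, with a median of -0.72 against -0.13 for the 56 genes at that level. Whether signal strength has a part in the differences was not tested.

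**Figure D2:**
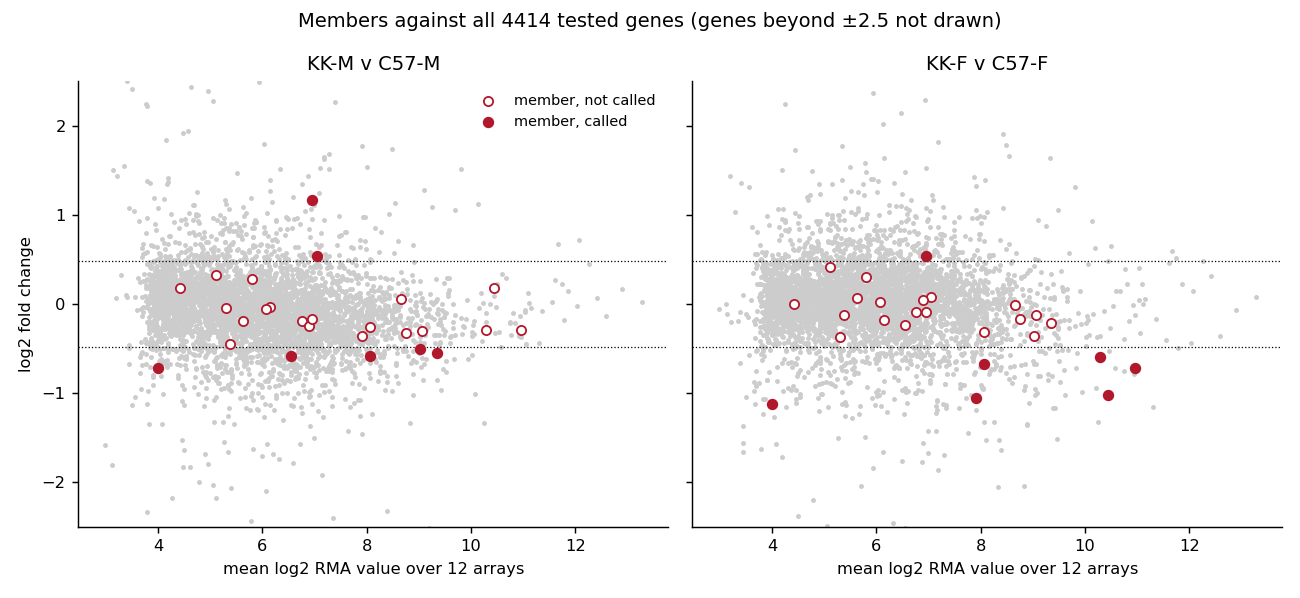
Log2 fold change against the mean log2 RMA value over 12 arrays for all 4414 tested genes (grey) and the 26 OXPHOS members (red circles, filled where called), in males (left) and females (right); dotted lines mark a fold change of 1.4 and genes beyond the vertical limits are not drawn. The 3 members at a mean of 10 and over lie below the lower line in females and above it in males; with renewed quantile normalization Ndufs7 is inside the line in females.

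Genes of other tissues also differed between the groups, in orders that varied from list to list. Skeletal muscle genes stood apart in KK-M, where all 10 tested of 12 measured genes were higher than in C57-M and in KK-F, with an array mean of 5.77 to 5.98 against 3.6 to 3.81 on the 9 other arrays. White adipocyte genes (4 of 11 listed were measured) were lowest in KK-F (5.8 to 5.94) and next in KK-M (6.85 to 6.86). They lay at 6.9 to 7.03 in C57-F and 7.04 to 7.16 in C57-M. All 4 were lower in KK-F than in C57-F, against 9.06% of all genes tested. Brown adipocyte genes (4 of 10 listed, Ucp1 not among them) lay at 5.84 to 6.01 in C57-M, 5.85 to 5.96 in C57-F, 5.43 to 5.5 in KK-M and 5.1 to 5.2 in KK-F. The white and the brown list both had KK-F lowest and KK-M next, as did the array means of the OXPHOS members. Hepatocyte genes (8 of 15 listed) were at 6.86 to 7.69 in C57 and at 4.02 to 5.19 in KK, macrophage genes (4 of 7 listed) ran from 8.26 to 8.33 in C57-M down to 7.16 to 7.33 in C57-F, and medulla genes (4 of 12 listed) were higher in KK (9.11 to 9.61) than in C57 (8.42 to 8.84). The part of these tissues in the OXPHOS differences was not tested, and in bulk tissue fewer cells of a type and less RNA per cell cannot be told apart.

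Complex I, which oxidises NADH, was represented by 7 subunit genes, all of them tested. All 7 had a negative difference in males (median -0.29), against 2561 of all 4414 genes tested (median -0.07). Of the 7, 1 was called lower in males, against 13.4% of all genes tested. In females 5 of the 7 were negative (median -0.17), against 2032 of all 4414 genes tested (median 0.03). There 2 of the 7 were called lower, against 9.06% of all genes tested. The signs by complex were not counted under renewed quantile normalization. Ndufb9 encodes an accessory subunit of the membrane arm. It read 8.29, 8.41 and 8.19 in C57-M, 8.24, 8.07 and 8.34 in C57-F, 7.98, 7.87 and 7.95 in KK-M and 7.14, 7.22 and 7.14 in KK-F. The 3 KK-F arrays lay below all others, with no overlap. Ndufb9 was 2.07-fold lower in KK-F than in C57-F (-1.05 ± 0.09 log2, SE; limma adjusted p = 3.4e-06) and was at -0.36 ± 0.09 in males, under the fold threshold.

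Ndufs7, the iron-sulfur subunit that passes electrons on to ubiquinone, followed the same order. Its values were 10.6, 10.49 and 10.6 in C57-M, 10.47, 10.44 and 10.46 in C57-F, 10.3, 10.3 and 10.23 in KK-M and 9.77, 9.82 and 10.01 in KK-F. All KK arrays lay below all C57 arrays, and KK-F lay below KK-M. The female difference was -0.59 ± 0.08 (limma adjusted p = 0.00016) and the male difference -0.29 ± 0.08 (adjusted p = 0.019), which did not reach the fold threshold. With renewed quantile normalization the female difference was -0.41, also under the threshold.

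Ndufs4, an accessory subunit of the NADH-oxidising arm whose loss causes a mitochondrial encephalopathy in mice, had its highest values in a single group. The C57-M arrays gave 8.64, 8.77 and 8.51, the C57-F arrays 8.32, 7.75 and 7.73, the KK-M arrays 8.08, 8.25 and 7.84, and the KK-F arrays 7.6, 7.7 and 7.55. C57-M did not overlap any other group, while C57-F and KK-M did overlap. Ndufs4 was the 1 member called between the sexes of C57 (0.71 ± 0.15 higher in males, limma adjusted p = 0.0034) and was lower in KK-M than in C57-M (-0.58 ± 0.15, adjusted p = 0.011). The latter was -0.48 without KK-M replicate 3 and -0.44 with renewed quantile normalization, just short of the fold threshold in both cases.

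The other 4 genes of complex I were not called in any comparison. Ndufa10 was at -0.33 ± 0.08 in males (limma adjusted p = 0.0097) and -0.17 ± 0.08 in females, and Ndufs1, the large iron-sulfur subunit, was at -0.25 ± 0.09 and 0.05 ± 0.09. Ndufa12 was at -0.19 and -0.09 and Ndufb3 at -0.06 and 0.03 in males and females, each with an SE of 0.11 or 0.12. In complex I of KK mice, Ndufs1 was also at -0.36 ± 0.09 in males against females (adjusted p = 0.0087), opposite in sign to Ndufb9 (0.77 ± 0.09, adjusted p = 4.7e-05).

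Complex II, succinate dehydrogenase, belongs both to the respiratory chain and to the citrate cycle. Of its 2 measured genes, Sdha was called lower in KK males, against 13.4% of all genes tested. Sdhc was called lower in KK females, against 9.06%. Each gene had a negative difference in both sexes. Sdha, the flavoprotein that oxidises succinate, read 9.08, 9.15 and 9.26 in C57-M, 9.33, 9.31 and 9.3 in C57-F, 8.82, 8.67 and 8.49 in KK-M and 8.92, 9.04 and 8.9 in KK-F. Every KK array lay below every C57 array. The male difference was -0.51 ± 0.1 (limma adjusted p = 0.0013), close to the fold threshold, and it fell short without C57-M replicate 3 (-0.46), without KK-M replicate 3 (-0.42), with array quality weights (-0.47) and with renewed quantile normalization (-0.36). The female difference was -0.36 ± 0.1 (adjusted p = 0.012).

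Sdhc, a membrane anchor of the complex, showed the reverse order of the sexes in KK. Its values were 8.29, 8.31 and 8.41 in C57-M, 8.33, 8.3 and 8.17 in C57-F, 8.03, 8.25 and 7.96 in KK-M and 7.63, 7.68 and 7.46 in KK-F. KK-F lay below the other groups with no overlap. Sdhc was lower in KK-F than in C57-F (-0.68 ± 0.1, limma adjusted p = 0.00019) and lay at -0.26 ± 0.1 in males. Its difference between KK males and females was 0.49 ± 0.1 (adjusted p = 0.0021), which barely passed the fold threshold and did not without KK-F replicate 3 (0.43) or without KK-M replicate 2 (0.41).

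Complex III had 3 measured genes and none was called in any comparison. Uqcrq, a small core-associated subunit, showed the most regular pattern, with 5.46, 5.55 and 5.47 in C57-M, 5.81, 5.72 and 5.94 in C57-F, 5.87, 5.71 and 5.74 in KK-M and 6.16, 6.03 and 6.18 in KK-F. Both sexes were higher in KK (0.28 ± 0.09 and 0.3 ± 0.09, limma adjusted p = 0.029 and 0.02) and both strains were lower in males (-0.35 ± 0.09 in KK and -0.33 ± 0.09 in C57, adjusted p = 0.0087 and 0.012), all under the fold threshold. Uqcrfs1, the Rieske iron-sulfur protein, was at -0.05 ± 0.15 in males and -0.37 ± 0.15 in females, and Uqcr11 was at -0.17 ± 0.12 and -0.09 ± 0.12.

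Complex IV, cytochrome c oxidase, was represented by Cox7c and Cox5b above the filter. Cox7c, a small nuclear-encoded subunit, gave 4.46, 4.26 and 4.39 in C57-M, 5.03, 4.13 and 4.47 in C57-F, 3.89, 3.68 and 3.41 in KK-M and 3.26, 3.56 and 3.43 in KK-F. KK and C57 did not overlap in either sex, at signals near the bottom of the range used here. The differences were -0.72 ± 0.19 in males and -1.12 ± 0.19 in females (limma adjusted p = 0.012 and 0.00062). Both rest on a gene that entered the test through C57 alone, with KK means under the filter level, so neither their direction nor their size is independent of the filter. Cox5b was at 0.06 ± 0.12 in males and -0.02 ± 0.12 in females, from a probeset whose locus was not established.

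Ndufa4l2, the paralogue of the complex IV subunit Ndufa4 and a known target of hypoxia-inducible factor, was the 1 member called higher in KK in both sexes. It read 6.81, 6.66 and 6.53 in C57-M, 6.41, 6.27 and 6.43 in C57-F, 7.93, 8.03 and 7.55 in KK-M and 6.99, 6.73 and 7.03 in KK-F. KK-M lay above all other groups and KK-F above C57-F. Ndufa4l2 was 2.25-fold higher in KK than in C57 males (1.17 ± 0.13 log2, limma adjusted p = 2.4e-05), 1.46-fold higher in KK than in C57 females (0.54 ± 0.13, adjusted p = 0.0068) and 1.89-fold higher in KK males than in KK females (0.92 ± 0.13, adjusted p = 0.00017). The female difference was 0.48 without KK-F replicate 3, just under the fold threshold.

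**Figure D3:**
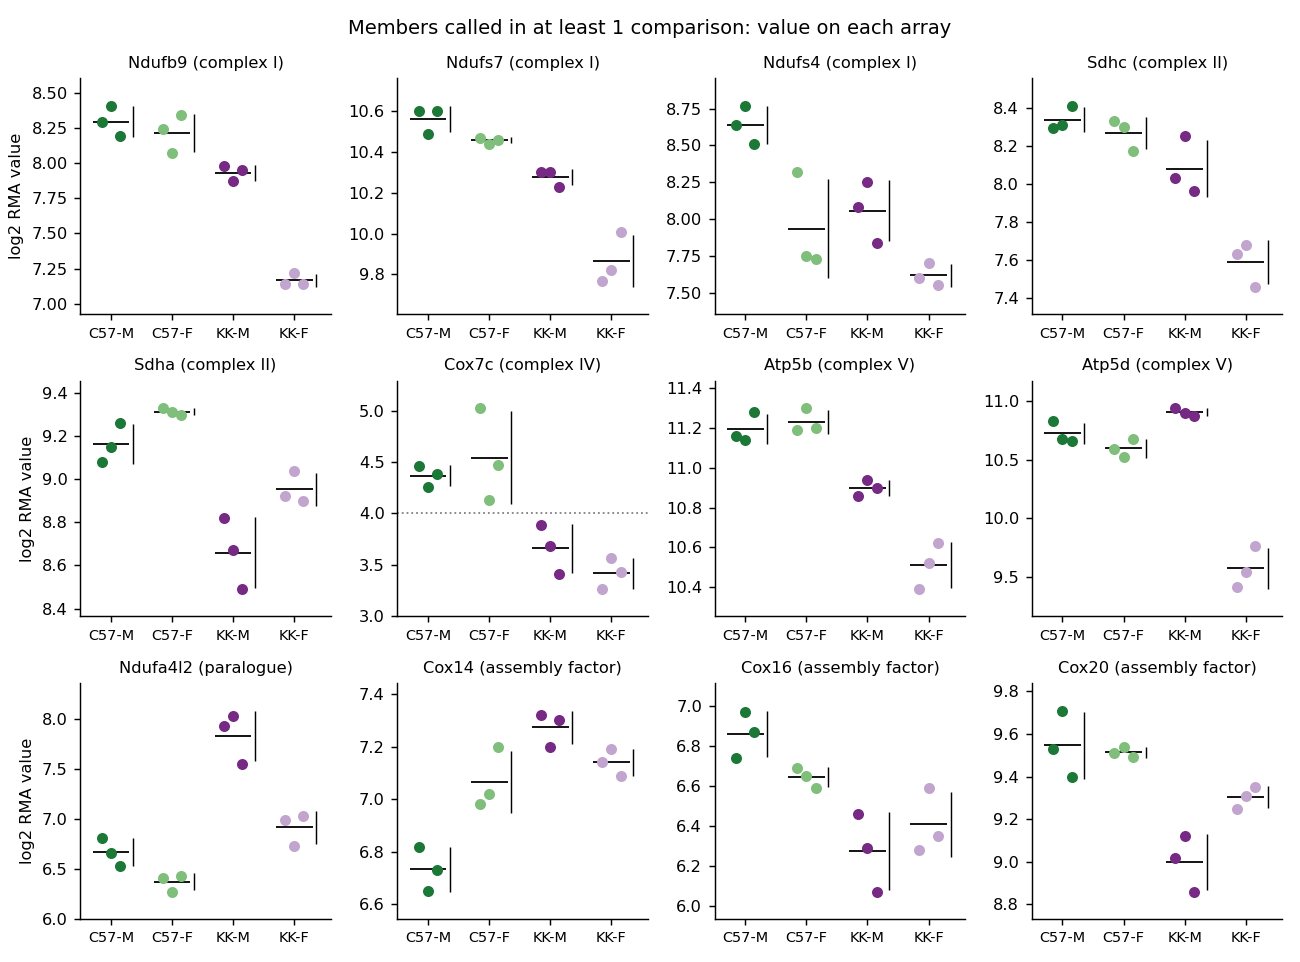
Log2 RMA value on each array for the 12 OXPHOS genes called in at least 1 comparison, by group; points are the 3 arrays of 1 pool, the horizontal line is their mean and the vertical line beside them is 1 SD to either side, and the dotted line in the Cox7c panel is the filter level of 4. Axes differ between panels and do not start at 0. KK-F lies lowest for Ndufb9, Ndufs7, Sdhc, Atp5b and Atp5d, and KK-M lies highest for Ndufa4l2.

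Complex V had 5 measured genes, of which 2 were called lower in KK females, against 9.06% of all genes tested. None was called in KK males, against 7.05% higher and 13.4% lower of all genes tested. At such shares 5 genes give few calls or none. Atp5d encodes the delta subunit of the central stalk. Its arrays gave 10.83, 10.68 and 10.66 in C57-M, 10.59, 10.52 and 10.68 in C57-F, 10.94, 10.9 and 10.87 in KK-M and 9.41, 9.54 and 9.76 in KK-F. The KK-F arrays stood clear below the others, while KK-M was slightly above C57-M. Atp5d was 2.04-fold lower in KK-F than in C57-F (-1.03 ± 0.1, limma adjusted p = 6.9e-06), 2.51-fold higher in males than in females of KK (1.33 ± 0.1, adjusted p = 7.3e-07) and at 0.18 ± 0.1 in males (adjusted p = 0.21). A second probeset of Atp5d gave smaller differences in the same order, -0.36, 0.57 and 0.04, and the mean of both probesets was still called in females (-0.69, adjusted p = 6.5e-05).

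Atp5b, the catalytic beta subunit, read 11.16, 11.14 and 11.28 in C57-M, 11.19, 11.3 and 11.2 in C57-F, 10.86, 10.94 and 10.9 in KK-M and 10.39, 10.52 and 10.62 in KK-F. Every KK array lay below every C57 array, and KK-F lay below KK-M. The difference was -0.72 ± 0.08 in females (limma adjusted p = 3.8e-05) and -0.29 ± 0.08 in males (adjusted p = 0.02, under the fold threshold). Of the other members, Atp5h, a subunit of the peripheral stalk, was at -0.3 ± 0.08 in males (adjusted p = 0.012) and -0.12 ± 0.08 in females. The locus read by this Atp5h probeset was not established, and a second probeset gave 0.24 in males and 0.39 in females. Atp5mpl, a small membrane subunit, was at 0.33 ± 0.14 and 0.42 ± 0.14, and Atp5g1, which encodes the ring subunit c, at 0.18 ± 0.16 and -0.01 ± 0.16.

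Assembly factors build the complexes without being part of them. Of the 6 tested, 1 was higher and 2 were lower in KK males, against 7.05% and 13.4% of all genes tested, and none was called in females, against 9.56% and 9.06%, shares at which 6 genes give few calls or none. In females the differences ran from -0.24 to 0.08. The interaction of strain and sex was called for none of the 6. Cox14, an early factor of complex IV assembly, gave 6.82, 6.65 and 6.73 in C57-M, 6.98, 7.02 and 7.2 in C57-F, 7.32, 7.2 and 7.3 in KK-M and 7.14, 7.19 and 7.09 in KK-F. C57-M lay below the other groups, and KK-M was higher by 0.54 ± 0.09 (limma adjusted p = 4e-04).

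Cox16 and Cox20, which act in the maturation of complex IV and its subunit COX2, went the other way. Cox16 read 6.74, 6.97 and 6.87 in C57-M, 6.69, 6.65 and 6.59 in C57-F, 6.46, 6.29 and 6.07 in KK-M and 6.28, 6.59 and 6.35 in KK-F. The male difference was -0.59 ± 0.11 (limma adjusted p = 0.0017), the female difference -0.24 ± 0.11, and the male value was -0.46 with renewed quantile normalization. Cox20 read 9.53, 9.71 and 9.4 in C57-M, 9.51, 9.54 and 9.49 in C57-F, 9.02, 9.12 and 8.86 in KK-M and 9.25, 9.31 and 9.35 in KK-F. The KK arrays of both genes lay at or below the C57 arrays, touching only at 6.59 for Cox16 in females.

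For Cox20 the male difference was -0.55 ± 0.1 (limma adjusted p = 0.00084) and the female difference -0.21 ± 0.1. The male value fell just short of the fold threshold without C57-M replicate 2 (-0.47) or without KK-M replicate 3 (-0.48), and was -0.34 with renewed quantile normalization. Sdhaf4, which helps assemble the flavoprotein of complex II, was at -0.45 ± 0.12 in males (adjusted p = 0.014) and -0.13 ± 0.12 in females. Ndufaf8 of complex I assembly was at -0.19 ± 0.13 and 0.06 ± 0.13, and Cox10, which makes the heme A precursor of complex IV, was at -0.04 ± 0.15 and -0.18 ± 0.15.

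Because members of 1 complex can share promoter elements, the RefSeq promoter windows (GRCm38.p6, 250 bases before to 50 after each start) were searched on both strands for the letters of 5 motifs. Windows were found for 21 of the 29 members, 23 windows in all, and not used here for Ndufa4l2, Ndufb9, Sdhc, Ndufs1, Uqcrq, Atp5mpl, Cox8c and Atp5c1-ps. The ETS core CCGGAAG, bound by GABPA (NRF2), was in 8 of 23 member windows against 8.86% of all 32851 windows, and the YY1 core AAGATGGC in 5 against 2.75%. The NRF1 core GCGCATGC was in 1 against 2.71%, the ERRA letters TCAAGGTCA in 0 against 0.42%, and CCAAT in 10 against 37.41%. Member windows were richer in G and C (median 59%) than all windows (52.7%), and a match is a stretch of letters and not a shown binding site.

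The bases before the start are shown for the ATP synthase genes that both fell in KK females and for the complex IV assembly genes that moved in opposite directions in KK males, with motif letters in capitals. Atp5b (chr10:128083057-128083306, plus strand) holds CCAAT 5 times on either strand, Atp5d (chr10:80142025-80142274, plus strand) holds none of the 5 motifs, Cox14 (chr15:99725368-99725617, plus strand) holds CCAAT 1 time, and Cox20 (chr1:178318903-178319152, plus strand) holds the ETS and YY1 letters.
Atp5b: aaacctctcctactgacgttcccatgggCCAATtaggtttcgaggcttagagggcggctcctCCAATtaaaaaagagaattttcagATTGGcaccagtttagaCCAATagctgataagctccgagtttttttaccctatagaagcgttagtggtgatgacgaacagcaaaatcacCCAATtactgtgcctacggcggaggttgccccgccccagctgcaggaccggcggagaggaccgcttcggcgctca
Atp5d: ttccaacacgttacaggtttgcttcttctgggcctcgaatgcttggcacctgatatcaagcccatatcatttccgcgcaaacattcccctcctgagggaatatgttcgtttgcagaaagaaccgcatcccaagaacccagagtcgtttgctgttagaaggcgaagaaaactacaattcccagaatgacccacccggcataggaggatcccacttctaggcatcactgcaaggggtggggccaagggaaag
Cox14: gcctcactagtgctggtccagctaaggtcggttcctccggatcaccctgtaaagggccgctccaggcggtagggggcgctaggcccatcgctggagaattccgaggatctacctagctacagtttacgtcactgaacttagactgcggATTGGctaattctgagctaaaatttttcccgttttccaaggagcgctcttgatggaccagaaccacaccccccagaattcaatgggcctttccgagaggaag
Cox20: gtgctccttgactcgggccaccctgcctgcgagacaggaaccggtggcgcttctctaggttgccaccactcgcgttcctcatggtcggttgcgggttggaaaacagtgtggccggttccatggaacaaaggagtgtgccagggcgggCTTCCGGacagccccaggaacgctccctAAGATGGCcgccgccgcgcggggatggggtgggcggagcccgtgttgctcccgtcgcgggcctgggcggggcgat
The pair that fell together, Atp5b and Atp5d, thus differs in exact matches to these 5 motifs in this stretch. Whether promoter letters have a part in the differences was not tested. The members with ETS letters anywhere in their windows were Atp5h, Cox10, Cox14, Cox16, Cox20, Ndufaf8 and Uqcr11, of which Cox14 was higher and Cox16 and Cox20 were lower in KK-M.

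Between the sexes, 4 OXPHOS genes were called in KK and 1 in C57, each with the higher signal in males. In KK, 4 of 26 members were higher in males (Atp5d, Ndufa4l2, Ndufb9 and Sdhc), 15.4% against 7.27% of all genes tested, and none was lower, against 11.6%. By adjusted p alone, without the fold threshold, 11 of 26 members passed (7 higher and 4 lower in KK males), 42.3% against 34.5% of all genes tested, among them Ndufs7 at 0.41 ± 0.08, Atp5b at 0.39 ± 0.08, Uqcrq at -0.35 ± 0.09 and Ndufs1 at -0.36 ± 0.09. In C57, 1 of 26 was higher in males (Ndufs4), 3.85% against 4.33%, and none was lower, against 2.74%. The sex comparison in KK uses the arrays of both strain comparisons, so that its values repeat a part of theirs.

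The median of the 26 members between the sexes was 0.01 in KK and 0.02 in C57, against -0.06 and 0.02 over all genes tested. The scaling mattered here, since renewed quantile normalization moved the median of all genes in KK by 0.12 and turned the share of higher genes among all calls from 38.6% to 61.4% (55.7% with median centring), and turned the C57 member median to -0.02. Relative to the median of all genes, the member median in KK was 0.07 in the fit as deposited and 0.09 after quantile normalization, and the members called were then 5 higher and 0 lower (6 and 0 with median centring).

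Whether the strain difference itself differed between the sexes was tested as an interaction, taken as the difference in males minus that in females. It was called for 3 of 26 members (11.5%), all 3 with a positive sign. Of all 4414 genes tested 13.9% were called, 168 with a positive and 444 with a negative sign. In the fit as deposited, the calls of the members had the sign that was rarer among all genes. The signs over all genes were not counted under renewed quantile normalization. That scaling moved the median strain difference of all genes by 0.08 in males and by -0.04 in females. Atp5d had an interaction of 1.2 ± 0.14 (limma adjusted p = 0.00012), Ndufb9 of 0.69 ± 0.13 (adjusted p = 0.0035) and Ndufa4l2 of 0.63 ± 0.18 (adjusted p = 0.035). The first 2 came from a fall in KK females, and Ndufa4l2 from a larger rise in KK males. Cox14 (0.46 ± 0.12, adjusted p = 0.021) and Atp5b (0.43 ± 0.12, adjusted p = 0.028) passed the p threshold but not the fold, and Sdhc was at 0.42 ± 0.14 (adjusted p = 0.054). For Cox7c, Ndufs7, Ndufs4, Sdha, Cox16 and Cox20, which were called in 1 or both sexes, no interaction was called (adjusted p = 0.093 to 0.47), so a difference between the sexes was not shown for them.

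Genes of neighbouring mitochondrial functions were taken from lists that do not follow the name rule. Their calls were not checked under renewed quantile normalization, which took the lower members in males from 5 to 1. Of 11 tested assembly factors outside the rule, 2 were lower in KK males (18.2% against 13.4% of all genes tested) and 1 in KK females (9.09% against 9.06%), close to the background. The difference was negative for 10 in males and 9 in females (medians -0.32 and -0.24), against 2561 and 2032 of all 4414 genes tested. Higd2a, a factor of complex IV and supercomplex formation, was lower in both sexes (-0.61 ± 0.11 and -0.81 ± 0.11, limma adjusted p = 0.00088 and 0.00011), and Tmem70, which serves ATP synthase assembly, in males (-0.59 ± 0.12). Ttc19 of complex III was lower in KK males than in KK females (-0.87 ± 0.14).

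Among 7 tested genes of electron carriers and entry enzymes, Nnt was higher in KK in both sexes (0.98 ± 0.11 and 0.96 ± 0.11, limma adjusted p = 1.8e-05 and 2.1e-05). Nnt encodes the proton-driven transhydrogenase that makes mitochondrial NADPH, and C57BL/6J mice are known to carry a deletion in it. Cyc1, the cytochrome c1 of complex III, whose symbol falls outside the name rule, was lower in KK females (-0.78 ± 0.08, adjusted p = 8e-06) and at -0.45 ± 0.08 in males. Between KK males and females Coq8a was at -0.63 ± 0.1 and Coq10a at 0.49 ± 0.11, both of them genes of coenzyme Q biology.

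Of 9 tested genes of the citrate cycle and pyruvate dehydrogenase, 4 were lower in KK males (44.4% against 13.4% of all genes tested) and 2 in KK females (22.2% against 9.06%), with medians of -0.27 and -0.31, and none was higher. Mpc1, a subunit of the mitochondrial pyruvate carrier, showed the largest differences of this list (-1.33 ± 0.17 and -2.04 ± 0.17, limma adjusted p = 6e-05 and 1.6e-06), followed by Sucla2 of succinyl-CoA ligase (-0.98 ± 0.13 and -0.65 ± 0.13). The Mpc1 probeset has its 10 nearest mapped neighbours by number on chromosome 12 while the gene lies on chromosome 17, so the locus it reads was not established, and without it 3 of 8 were lower in males and 1 of 8 in females. Dld and Pdhb, which encode parts of the pyruvate dehydrogenase complex, were lower in males (-0.69 ± 0.1 and -0.59 ± 0.1). The mitochondrial import list had 2 of 9 lower in each sex (22.2% against 13.4% of all genes in males and 9.06% in females; medians -0.29 and -0.3), Timm17a and Timm9 in males and Timm23 and Tomm22 in females.

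The list of mitochondrial biogenesis and transcription had 2 of 9 lower in KK males (22.2% against 13.4% of all genes) and 1 in KK females (11.1% against 9.06%), with medians of -0.26 and -0.02. Tfb2m, a factor of mitochondrial transcription initiation, was lower in both sexes (-0.72 ± 0.17 and -0.55 ± 0.17), although its probeset lies among neighbours of chromosome 12 and the gene on chromosome 1, and without it 1 of 8 was lower in males and none in females. Mterf3 was lower in males (-0.7 ± 0.17), and Tfam, which packages mitochondrial DNA, was lower in KK males than in KK females (-0.55 ± 0.17). Of the 3 measured genes of mitochondrial steroidogenesis (Cyp11b1, Cyp11b2 and Tspo), none was called between the strains, and Cyp11b2, the aldosterone synthase, was higher in males in both strains (1 ± 0.09 in KK and 0.85 ± 0.09 in C57).

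**Figure D4:**
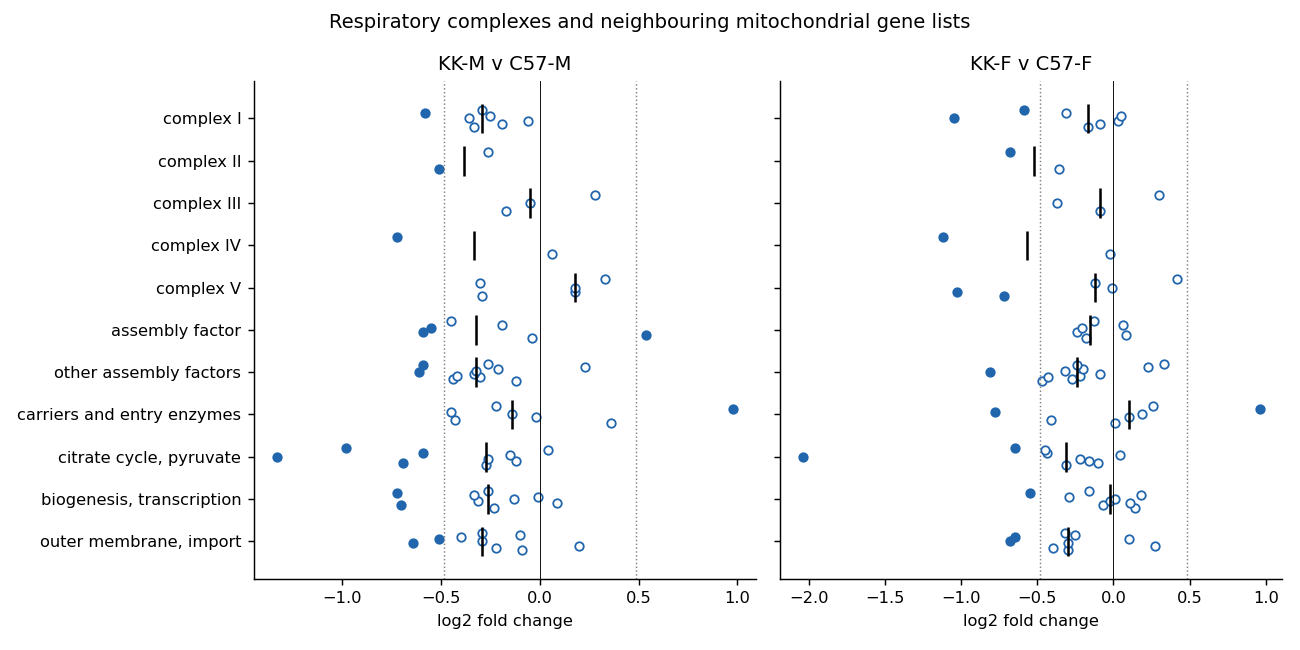
Log2 fold change between the strains in males (left) and females (right) for the tested genes of each OXPHOS complex, the assembly factors within the name rule, and 5 neighbouring lists; each circle is a gene, filled where called, the black bar is the median of the row, and dotted lines mark a fold change of 1.4. Called genes lie mostly on the lower side, with Cox14 and Nnt as exceptions in males and Nnt in females. Ndufa4l2 is not drawn, and the horizontal scales of the panels differ. With renewed quantile normalization the male calls of Cox16, Cox20, Ndufs4 and Sdha are lost, and calls of the 5 lists were not checked under it.

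Chromosomal position gave a few close neighbours among the members. In RefSeq order Atp5d and Ndufs7 lie on chromosome 10 with 5 protein-coding genes between them, and Ndufs7 and Uqcr11 with 11. Atp5d and Ndufs7 both fell in KK females, whereas Uqcr11 was at -0.09 ± 0.12. Ndufa4l2 and Atp5b, also on chromosome 10 with 21 genes between them, went in opposite directions in females.

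The identity of some signals is less secure. For Cox5b and Atp5h, the brightest of 2 probesets has probeset numbers whose 10 nearest mapped neighbours all lie on chromosomes 13 and 15, while the genes lie on chromosomes 1 and 11, and it was not established what locus these probesets read. The other probeset of each lies among neighbours of the gene's own chromosome. It gave -0.17 in males and -0.1 in females for Cox5b, at group means of 3.84 to 4.01. For Atp5h it gave 0.24 and 0.39, opposite in sign to the brightest probeset. Neither gene was called in any comparison, and the member medians and sign counts were not redone without Cox5b and Atp5h. Subunit genes of OXPHOS have many processed copies in the mouse genome, and a probeset that also reads a copy was not told apart here.

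A further 6 probesets name an OXPHOS gene together with another gene and were left out. The one shared by Tom1l1 and Cox11, the latter a copper-delivery factor of complex IV, was at -0.96 in males and -0.42 in females. The one shared by Ndufs1 and Ino80dos was at 0.41 and 0.53, opposite in sign in males to the Ndufs1 probeset used above. The other 4 ranged from -0.39 to 0.15 in males and from -0.32 to 0.01 in females.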

How the data were processed

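Adrenal RNA was pooled by group, and each of the 4 pools was run on 3 arrays. The authors deposited log2 values per probeset, made by robust multi-array averaging (RMA) in Partek, and these were used as they stand. Arrays hold no read depth, and precision rests on the number of arrays. The table is partial, with 16378 probesets, of which 7358 had 1 gene, 456 several (not used) and 8564 were unnamed here. For each gene the brightest probeset by its 12-array mean was kept. Genes reaching a mean of 4 in any group (4414 of 6986) entered a limma 3.58.1 model in R 4.3.3, with a mean for each group, contrasts and moderated variances (residual df 8, prior df 4.842). Adjustment ran over the 4 pairwise contrasts together, and over the interaction by itself. The model was tested on simulated data.

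Members called in any contrast were described with the value on every array, the other members by their difference, and up to 4 genes of each neighbouring list by the largest change. The part of this rule that would name the highest and lowest gene of a complex by level was left out, since levels of different probesets cannot be compared. The members, the lists and the tests were chosen with earlier results of these data known. Alternatives changed the filter, the scaling (renewed quantile normalization or median centring), the variance model, the use of the replicate number as a block, the groups in the model, the adjustment, the choice of probeset and the fold threshold, or left out each array in turn.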

Additional observations from a re-analysis of the deposited data

Results flagged for a closer look

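The strain difference of 3 members differed between males and females by the interaction term of the limma fit, taken as males minus females on the log2 scale. Atp5d stood at 1.2 (adjusted p = 0.00012), Ndufb9 at 0.69 (adjusted p = 0.0035) and Ndufa4l2 at 0.63 (adjusted p = 0.035). Atp5d was called under every alternative run, but none of these used its second probeset alone. That probeset gave strain differences of 0.04 in males and -0.36 in females, both under the fold threshold. The brightest probeset gave 0.18 and -1.03. Ndufb9 was called under all alternatives except a fold threshold of 2. The interaction of Ndufa4l2 missed the p threshold under 10 of 23 alternatives, 8 of which left out 1 array, with adjusted p between 0.0071 and 0.08 over all 23.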

How the results depend on the processing

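Other fold thresholds apart, 14 of 22 called differences of single members kept their direction and their call under every alternative that gave them a value, 8 lost the call under at least 1, and 0 reversed. The 14 include both of Cox7c, which was called with no filter but dropped out under the 2 stricter filters, where 6 members were called in each strain comparison. With renewed quantile normalization the members called were 3 in KK-M v C57-M and 6 for the interaction, and the member median was -0.09 in KK-M v C57-M and 0.15 in KK-M v KK-F, where median centring gave 0.1. With no fold threshold, as with a fold of 1.2, the counts were 14 between the strains in males, 10 in females, 11 between the sexes in KK, 4 in C57 and 5 for the interaction. By adjusted p alone these are 53.8%, 38.5%, 42.3%, 15.4% and 19.2% of members, against 36.2%, 33%, 34.5%, 16.5% and 16.9% of all genes. At a fold of 2 the counts were 1, 3, 1, 0 and 1. Leaving out 1 array gave 4 to 7 members in KK-M v C57-M, the 4 without KK-M replicate 3, 6 to 8 in KK-F v C57-F, 3 to 5 in KK-M v KK-F, 1 to 2 in C57-M v C57-F, the 2 without C57-M replicate 3, and 2 to 4 for the interaction. The medians then ran from -0.27 to -0.2, -0.18 to -0.11, 0 to 0.04 and -0.03 to 0.09 in the 4 pairwise comparisons, the last without C57-M replicates 2 and 3. The cause of these shifts was not tested.

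Deviations of arrays with the same replicate number correlated between -0.1 and 0.12 over 12 pairs of arrays, and 4 of 12 arrays correlated best with their own number, so the numbers do not pair the arrays. With the replicate number as a block the counts stayed at 7, 7, 4, 1 and 3.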

Other observations

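The spread between the 3 arrays of a pool was of the same size for the members as for all genes, with a median SD of 0.108 against 0.11 in C57-M, 0.087 against 0.117 in C57-F, 0.128 against 0.145 in KK-M and 0.104 against 0.115 in KK-F. Single values such as Ndufs4 on C57-F replicate 1 (8.32 against 7.75 and 7.73) and Uqcrfs1 on KK-M replicate 2 (5.63 against 4.91 and 4.96) stood apart from the other 2 arrays of their pool.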
